A study of Mus musculus with 16 samples.

Results

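Hexosamine synthesis, hyaluronan synthesis and the hyaluronan receptor Cd44 were described through 10 genes in mammary glands of mice housed alone or in groups. They were found as the probe sets (short oligonucleotide groups that report on a transcript) whose only gene symbol is Pgm3, Gfpt1, Gfpt2, Gnpnat1, Uap1, Ugdh, Has1, Has2, Has3 or Cd44. The 10 genes had 26 of the 45101 probe sets on the array, and were 10 of 18193 genes with a probe set of a single symbol. No measured value entered that rule, but the genes were proposed with earlier results of these arrays in view, among them the difference of Pgm3 between housing groups at 15 weeks. Values of housing at 15 weeks are therefore given as a description with no p-value, counts of calls there are printed only beside their background, and the p-values of the other comparisons are those of fits over all genes and are no independent support.

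All 16 arrays came from the thoracic gland of FVB/N females with a homozygous transgene for SV40 large Tag, the viral T antigen. It is driven by C3(1), a promoter fragment of a rat prostatic steroid binding protein gene, which is active in mammary and prostate epithelium and gives rise to tumours there. The 4 groups of 4 arrays were mice housed in groups or alone (isolated) and killed at 15 or 20 weeks of age, in estrus and at one time of the dark phase, and no group lacked the transgene. After weaning the mice first lived with their sisters and were then assigned to single or group housing so that the groups were balanced for behavior in an open field.

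The hexosamine pathway turns fructose 6-phosphate and glutamine into UDP-N-acetylglucosamine, the sugar donor for N-glycans, O-GlcNAc, proteoglycan chains and hyaluronan. Hyaluronan is a long unbranched sugar chain of alternating N-acetylglucosamine and glucuronic acid that synthases at the cell surface make directly from UDP-sugars. In mammary tissue it lies mainly in the stroma, where it swells the matrix and binds Cd44 on epithelial, immune and stromal cells.

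The deposited values are log2 levels, and the probe set with the highest mean level over the 16 arrays was used for each gene unless another is named. The ages had unlike distributions: after sorting, arrays of one age were 0.0262 apart on average and arrays of both ages 0.233, and the median gene lay 0.23 higher at 20 weeks. This shift was subtracted from all age differences below, but age and processing run cannot be told apart. The glands showed their epithelium, as Epcam lay at 12.82 to 13.98 and Krt8 at 11.81 to 12.67. T and B cell markers stood apart on 2 arrays: they averaged 8.90 on grouped replicate 1 of 15 weeks and 8.34 on isolated replicate 3 of 20 weeks, against 7.20 to 7.35 on the other 14. The glands also held skeletal muscle, whose 7 markers averaged 12.66 to 14.03 per array. Of the 10 genes, Has2 and Has3 were the ones that a filter at the 40th percentile of level removed. Has3 lay at 6.92 to 7.70, where the lower quartiles of the arrays lay at 6.76 to 7.04, and whether it exceeded background was not tested.

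Promoter sequences are shown for 4 of the genes. Of these, Gfpt1 (the entry enzyme), Pgm3 and Uap1 lie along the hexosamine route. Ugdh, on a separate branch, supplies the other sugar of hyaluronan. They are the 250 bases before the transcript start from RefSeq (GRCm38.p6), written 5′ to 3′ on the strand of the gene. RefSeq entries were used for 7 of the 10 genes, and Gnpnat1, Has2 and Has3 were not matched. Capitals mark GGGCGG (the Sp1 box), CCAAT and ACGTG (the core of sites bound by XBP1, a regulator of the unfolded protein response) on either strand.
Pgm3, chr9:86571843-86572092, strand minus: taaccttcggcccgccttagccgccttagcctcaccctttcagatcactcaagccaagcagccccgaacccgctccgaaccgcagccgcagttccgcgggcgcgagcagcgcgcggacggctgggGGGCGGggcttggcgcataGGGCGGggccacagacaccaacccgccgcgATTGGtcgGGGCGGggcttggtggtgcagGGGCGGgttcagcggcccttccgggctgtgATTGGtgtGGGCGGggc
Gfpt1, chr6:87042596-87042845, strand plus: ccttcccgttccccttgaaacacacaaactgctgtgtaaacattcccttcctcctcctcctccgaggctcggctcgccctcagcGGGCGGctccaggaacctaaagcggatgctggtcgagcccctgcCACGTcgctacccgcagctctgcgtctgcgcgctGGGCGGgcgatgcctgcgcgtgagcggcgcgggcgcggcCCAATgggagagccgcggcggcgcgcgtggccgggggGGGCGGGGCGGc
Uap1, chr1:170174965-170175214, strand minus: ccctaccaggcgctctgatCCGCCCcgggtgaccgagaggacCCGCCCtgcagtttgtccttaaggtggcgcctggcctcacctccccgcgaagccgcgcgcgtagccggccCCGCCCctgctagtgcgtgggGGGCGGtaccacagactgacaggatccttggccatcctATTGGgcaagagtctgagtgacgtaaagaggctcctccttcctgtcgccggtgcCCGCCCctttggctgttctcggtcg
Ugdh, chr5:65435843-65436092, strand minus: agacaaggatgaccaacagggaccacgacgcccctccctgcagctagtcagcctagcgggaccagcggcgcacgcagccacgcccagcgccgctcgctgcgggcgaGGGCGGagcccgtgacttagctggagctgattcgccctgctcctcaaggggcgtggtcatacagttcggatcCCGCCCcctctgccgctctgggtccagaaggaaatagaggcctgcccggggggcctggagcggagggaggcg
The Pgm3 and Uap1 windows held 5 GGGCGG matches each, that of Gfpt1 held 4 and that of Ugdh held 2. Among the windows not shown, that of Gfpt2 held 2 and those of Has1 and Cd44 held 0. Of all 32851 promoter windows of this length, 32.7% held GGGCGG on either strand. CCAAT was found 2 times each in the windows of Pgm3 and Gfpt2, 1 time each in those of Gfpt1, Uap1 and Has1, and 0 times in those of Ugdh and Cd44. Of all windows 33.8% held it. ACGTG was found in the Gfpt1 window, 122 bases before the start, in the windows of Gfpt2 and Cd44 (not shown), and in 16.6% of all windows. Of the 7 windows 0 held TATAAA (in 12.4% of all windows), CACGTG, which contains ACGTG (6.02%), or the ER stress element, which contains CCAAT (0.113%). The windows of Pgm3, Gfpt1, Uap1 and Ugdh held 71.6%, 72%, 67.2% and 69.2% G and C bases, against a median of 52.4% over all windows. A match is a description of the letters and not a binding site.

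The first comparison asked how these transcripts differed with housing at 15 weeks. Pgm3, which moves the phosphate of N-acetylglucosamine 6-phosphate to carbon 1, lay higher in isolated mice. Its level was 8.47, 8.65, 8.81 and 8.74 (log2) on the grouped arrays and 9.22, 9.23, 9.30 and 9.12 on the isolated arrays. Every isolated array lay above every grouped array. The difference was 0.55 on the log2 scale (SE 0.08, 95% interval 0.38 to 0.72), or 1.46-fold. That value brought the gene here, so it carries no test.

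The enzymes on both sides of Pgm3 lay the other way. Gnpnat1, which acetylates glucosamine 6-phosphate just before the Pgm3 step, lay at 9.74, 9.96, 9.95 and 10.15 in grouped and at 9.53, 9.60, 9.47 and 9.59 in isolated mice. The groups did not overlap, and the difference was -0.40 (SE 0.08, 95% interval -0.59 to -0.22). Of its 4 probe sets, 3 gave differences between -0.40 and -0.31 with groups apart, and the remaining dim one, at a mean of 5.65 in grouped mice, gave 0.043.

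Uap1, which joins the sugar phosphate to UDP just after the Pgm3 step, lay at 10.01, 10.09, 10.03 and 10.21 in grouped mice. In isolated mice it lay at 9.77, 9.93, 9.75 and 9.91, below every grouped array. The difference was -0.25 (SE 0.07, 95% interval -0.40 to -0.095), and all 5 of its probe sets gave a negative value, from -0.28 to -0.19. Groups were apart only for the probe set used and the one at -0.19, and overlapped for the others. The dimmest had a mean of 5.75 in grouped mice, under the lower quartile of the arrays. These 3 consecutive steps of the pathway did not lie on one side at 15 weeks. This is a description without a test, since the Pgm3 difference brought that gene here.

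The entry enzymes of the pathway differed little. Gfpt1, the glutamine:fructose 6-phosphate aminotransferase that sets the pathway's flux in most tissues, differed by 0.011 (SE 0.10, 95% interval -0.21 to 0.23). The grouped arrays of its relative Gfpt2 ran from 10.27 to 10.46 and the isolated ones from 10.13 to 10.23, a difference of -0.17 (SE 0.06) with groups apart. Ugdh, which oxidises UDP-glucose to the UDP-glucuronic acid that hyaluronan synthases use, lay at 11.13 to 11.58 and 10.99 to 11.30, a difference of -0.15 (SE 0.10), and the groups overlapped.

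The synthases and the receptor overlapped between housing groups at 15 weeks. Has2, the main hyaluronan synthase of fibroblasts, lay at 7.80, 7.92, 7.84 and 7.74 in grouped and at 7.88, 7.91, 7.81 and 7.67 in isolated mice (difference -0.0076, SE 0.07, 95% interval -0.15 to 0.14). Has1 and Has3, the other synthases, each differed by 0.15 (SE 0.07). Cd44 differed by -0.062 (95% interval -0.48 to 0.36), and its grouped arrays spread from 10.24 to 11.25 while the isolated arrays lay within 10.67 to 10.92.

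In all, 0 of the 10 genes passed an adjusted p of 0.05 in limma's fit over all genes at 15 weeks (background 0.044%), and 5 had an unadjusted p under 0.05 (9.70% of all genes). The housing groups did not overlap for 4 of the 10, which held for 5.69% of all genes. Of these Pgm3 lay higher in isolated mice (2.31% of all genes) and Gnpnat1, Uap1 and Gfpt2 lay lower (3.38%). Since this contrast was in view when the genes were proposed, nothing is read from these shares. The median difference of the 10 genes was -0.035, against -0.0093 over all genes.

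The lower values of the pathway enzymes at 15 weeks went with other signs that differed between the housing groups. The 8 fibroblast markers averaged 12.34 to 12.57 on grouped arrays and 12.10 to 12.39 on isolated arrays, with 8 of 8 markers lower in isolated mice, and 8 macrophage markers averaged 11.07 to 11.28 and 10.55 to 10.98. In whole glands fewer cells of a type and less RNA per cell cannot be told apart. The array's Gapdh controls read both ends of the transcript, and their 3′ value minus their 5′ value, a sign of RNA quality, was -0.06 ± 0.02 (SD, n = 4) in grouped and -0.01 ± 0.02 in isolated arrays. With this value as a covariate Gnpnat1 differed by -0.21 (SE 0.12), Uap1 by -0.11 (SE 0.10), Ugdh by 0.034 (SE 0.16) and Pgm3 by 0.59 (SE 0.13). The value ran from -0.09 to -0.03 on grouped and from -0.03 to 0.02 on isolated arrays. These values differ little on the log2 scale, but their order nearly follows housing. The covariate and housing can therefore hardly be told apart in this fit at 15 weeks, and nothing is read from these differences. Grouped replicate 1, which stood apart in T and B cell markers (8.90), had the lowest Pgm3 level of its group, and without it Pgm3 differed by 0.48, Gnpnat1 by -0.47 and Uap1 by -0.27. The part of the cell type markers in these values was not tested.

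**Figure D1:**
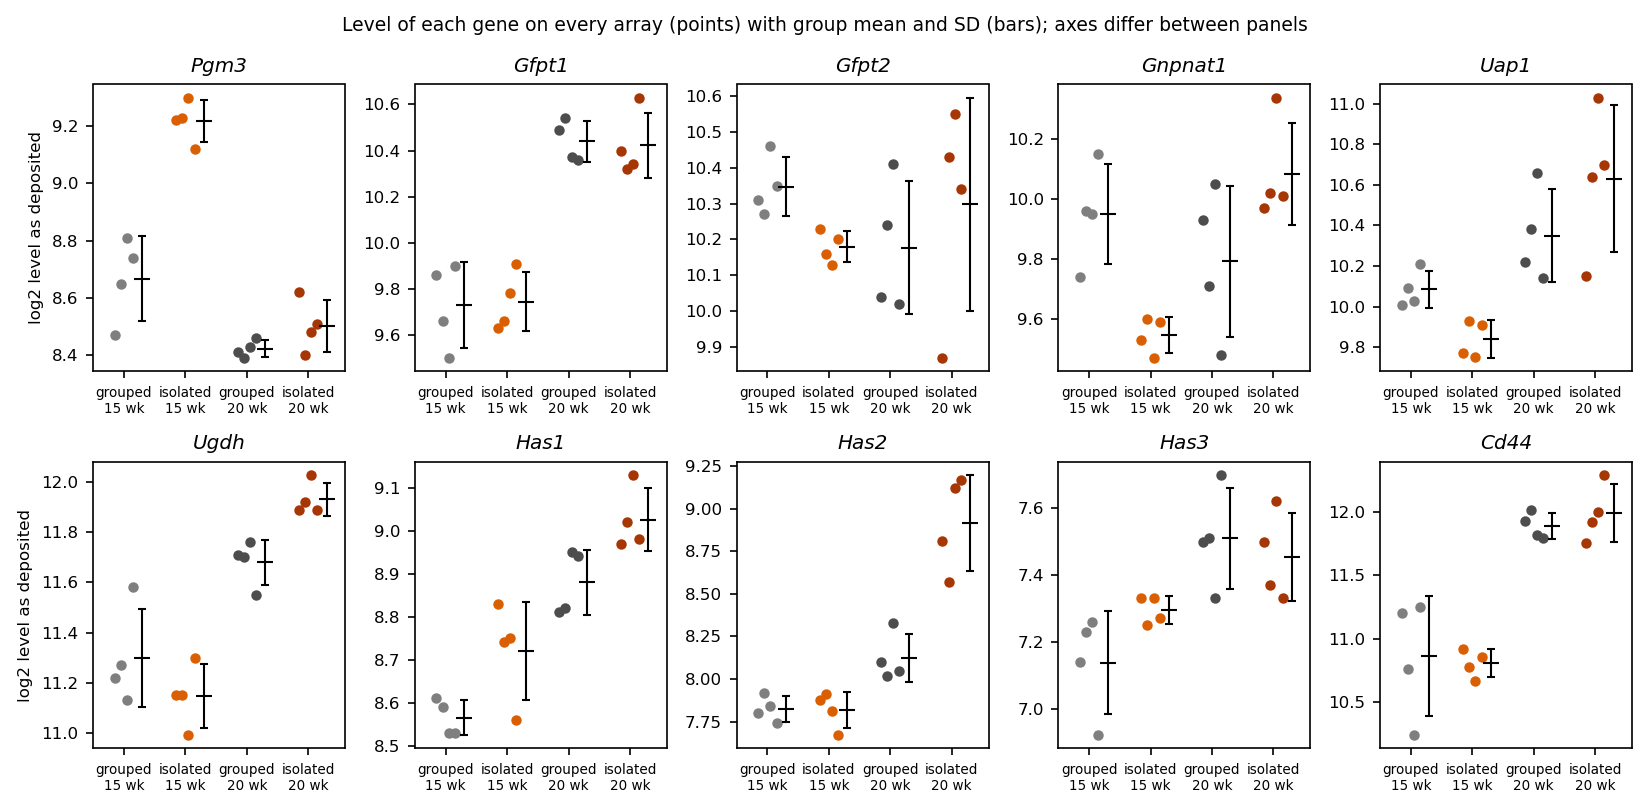
Log2 levels as deposited of the 10 genes (1 panel each, with its own axis) on every array of the 4 groups, as points, with the group mean and SD as bars (n = 4). The isolated arrays at 15 weeks stand above all others for Pgm3 (9.12 to 9.30), and the isolated arrays at 20 weeks stand above all others for Has2 (8.57 to 9.17) and Ugdh (11.89 to 12.03); levels at 20 weeks include the shift of 0.23 of all genes.

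At 20 weeks Has2 had the largest housing difference of the 10 genes. It lay at 8.10, 8.02, 8.33 and 8.05 in grouped and at 8.81, 8.57, 9.12 and 9.17 in isolated mice. Every isolated array lay above every grouped array. The difference was 0.79 (SE 0.14, 95% interval 0.49 to 1.10), or 1.73-fold, and it did not pass over all genes (adjusted p = 0.259 in limma). The second Has2 probe set lay at 7.47, 7.58, 7.64 and 7.61 in grouped and 8.23, 8.41, 8.66 and 8.56 in isolated mice, again with the groups apart. With the probe set of largest variance used for every gene it was this one that stood for Has2, and it passed (0.89, SE 0.09, adjusted p = 0.0318). The first probe set passed when all 16 arrays shared one fit (adjusted p = 0.0238), and over all alternatives run the adjusted p went from 0.0238 to 0.804. When single arrays were left out, the first probe set gave 0.71 to 0.91.

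Ugdh lay at 11.71, 11.70, 11.76 and 11.55 in grouped and at 11.89, 11.92, 12.03 and 11.89 in isolated mice at 20 weeks. The groups did not overlap, but the difference of 0.25 (SE 0.07, 95% interval 0.10 to 0.40) did not pass (adjusted p = 0.465). Has1 was the other gene whose groups did not overlap, at 8.81 to 8.95 and 8.97 to 9.13 (0.15, SE 0.06, adjusted p = 0.579). Groups were apart by housing at 20 weeks for 3 of the 10 genes, all higher in isolated mice, against 4.20% of all genes in either direction and 2.21% higher. In limma's fit 0 of the 10 passed over all genes (background 0.011%), and 3 had an unadjusted p under 0.05 (8.49% of all genes), Has2 (0.000218), Ugdh (0.00465) and Has1 (0.0434). Over the 10 genes 8 differences were positive (46.7% of all genes), with a median of 0.13 against -0.0083 over all genes. The genes were proposed with earlier results of these arrays in view, so nothing is read from these counts and shares.

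Gnpnat1 and Uap1 varied more between arrays at 20 weeks than at 15 weeks. Gnpnat1 lay at 9.93, 9.71, 10.05 and 9.48 in grouped and at 9.97, 10.02, 10.34 and 10.01 in isolated mice. The groups overlapped through grouped replicate 3, and the difference was 0.29 (SE 0.13, adjusted p = 0.584). Uap1 lay at 10.22, 10.38, 10.66 and 10.14 in grouped and at 10.15, 10.64, 11.03 and 10.70 in isolated mice (0.28, SE 0.18, adjusted p = 0.670). The lowest isolated array, replicate 1, lay with the grouped arrays. Without it Uap1 differed by 0.44, and without isolated replicate 3, the highest array, by 0.14.

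The Pgm3 groups were no longer apart at 20 weeks. Pgm3 lay at 8.41, 8.39, 8.43 and 8.46 in grouped and at 8.62, 8.40, 8.48 and 8.51 in isolated mice, and the arrays overlapped (0.078, SE 0.06, 95% interval -0.055 to 0.21, adjusted p = 0.706). Gfpt1 differed by -0.015 (95% interval -0.20 to 0.17), Gfpt2 by 0.12 (-0.22 to 0.45), Has3 by -0.055 (-0.26 to 0.15) and Cd44 by 0.10 (-0.15 to 0.35). Of the other 5 Gfpt1 probe sets, the next brightest had means of 7.60 in grouped and 7.79 in isolated mice, with groups apart.

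**Figure D2:**
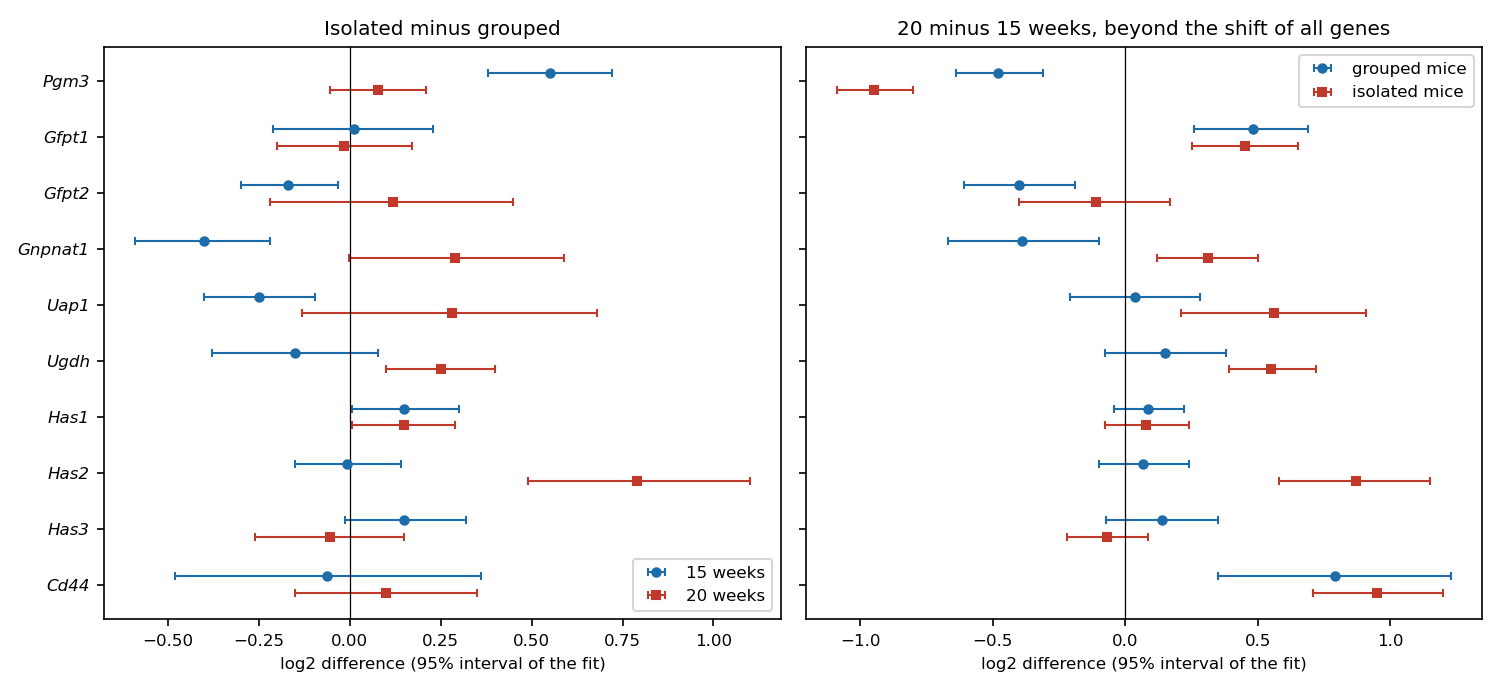
Log2 differences of the 10 genes with the 95% interval of the fit, isolated minus grouped at each age (left) and 20 minus 15 weeks beyond the shift of all genes in each housing group (right). Pgm3 stands out to the right at 15 weeks (0.55) and Has2 at 20 weeks (0.79), while Gnpnat1, Uap1 and Ugdh lie left of 0 at 15 weeks and right of 0 at 20 weeks.

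Stromal and immune markers differed between arrays at 20 weeks and moved with part of these genes. The 8 fibroblast markers averaged 11.50 to 12.68 on grouped and 11.80 to 12.63 on isolated arrays, with 8 of 8 markers higher in isolated mice, and the 8 macrophage markers averaged 10.27 to 11.70 and 10.73 to 11.77, also with 8 of 8 higher. T and B cell markers were higher in 6 of 6 cases (median 0.26), but their mean stood apart only on isolated replicate 3 (8.34). It lay at 7.26 to 7.32 on the other isolated arrays and at 7.23 to 7.35 on the grouped arrays. Of all genes 46.7% were higher in isolated mice. White adipocyte markers averaged 11.87 to 12.28 and 10.79 to 11.93, with 6 of 6 lower in isolated mice, and 7 of 7 skeletal muscle (median -0.55), 7 of 7 luminal epithelial (-0.27) and 6 of 6 endothelial markers (-0.34) were lower too. In limma's fit 0 of the markers of these 7 lists passed for housing at 20 weeks (0.011% of all genes). Grouped replicate 3 had the highest fibroblast mean of the 8 arrays (12.68) and also the highest grouped values of Gfpt2 (10.41), Gnpnat1 (10.05), Uap1 (10.66) and Has2 (8.33). Isolated replicate 1 had the lowest isolated fibroblast mean (11.80) and the lowest isolated values of Gfpt2 (9.87), Gnpnat1 (9.97) and Uap1 (10.15). The Has2 level was 8.81 on isolated replicate 1. Without grouped replicate 3 Has2 differed by 0.86, without isolated replicate 1 by 0.83 and without isolated replicate 3, which stood apart in T and B cell markers, by 0.72. The part of cell composition in all these differences, that of Has2 included, was not tested.

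**Figure D3:**
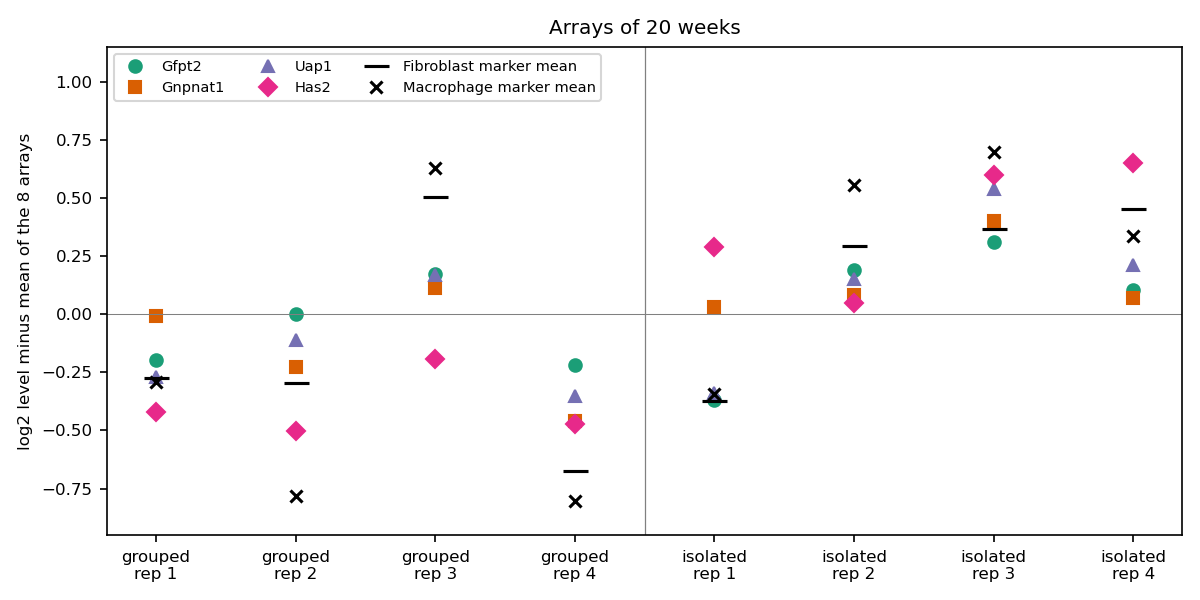
Log2 level minus the mean of the 8 arrays of 20 weeks, for Gfpt2, Gnpnat1, Uap1, Has2 and the means of the fibroblast and macrophage markers, with the grouped arrays left of the line and the isolated arrays right of it. Gfpt2, Uap1 and the marker means are high in grouped replicate 3 and low in isolated replicate 1, whereas Has2 is below 0 on all grouped and above 0 on all isolated arrays.

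Pgm3, Gfpt2, Ugdh, Has1 and Has3 had 1 probe set each, so their differences rest on it alone. Several probe sets reported on Uap1, Gnpnat1, Cd44 and Gfpt1. Those of Uap1 were negative at 15 weeks and positive at 20 weeks in 5 of 5 cases (0.16 to 0.31 at 20 weeks, with groups that overlapped). The 3 brighter probe sets of Gnpnat1 gave 0.26 to 0.29 at 20 weeks, and the dim one gave -0.10. The 3 brighter Cd44 probe sets gave 0.10, 0.20 and 0.28, with groups that overlapped. The other 5 Gfpt1 probe sets were dimmer than the one used (group means from 5.03 to 7.79 against 9.73 to 10.44), and the next brightest differed from it at 20 weeks (0.20 with groups apart, against -0.015).

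**Figure D4:**
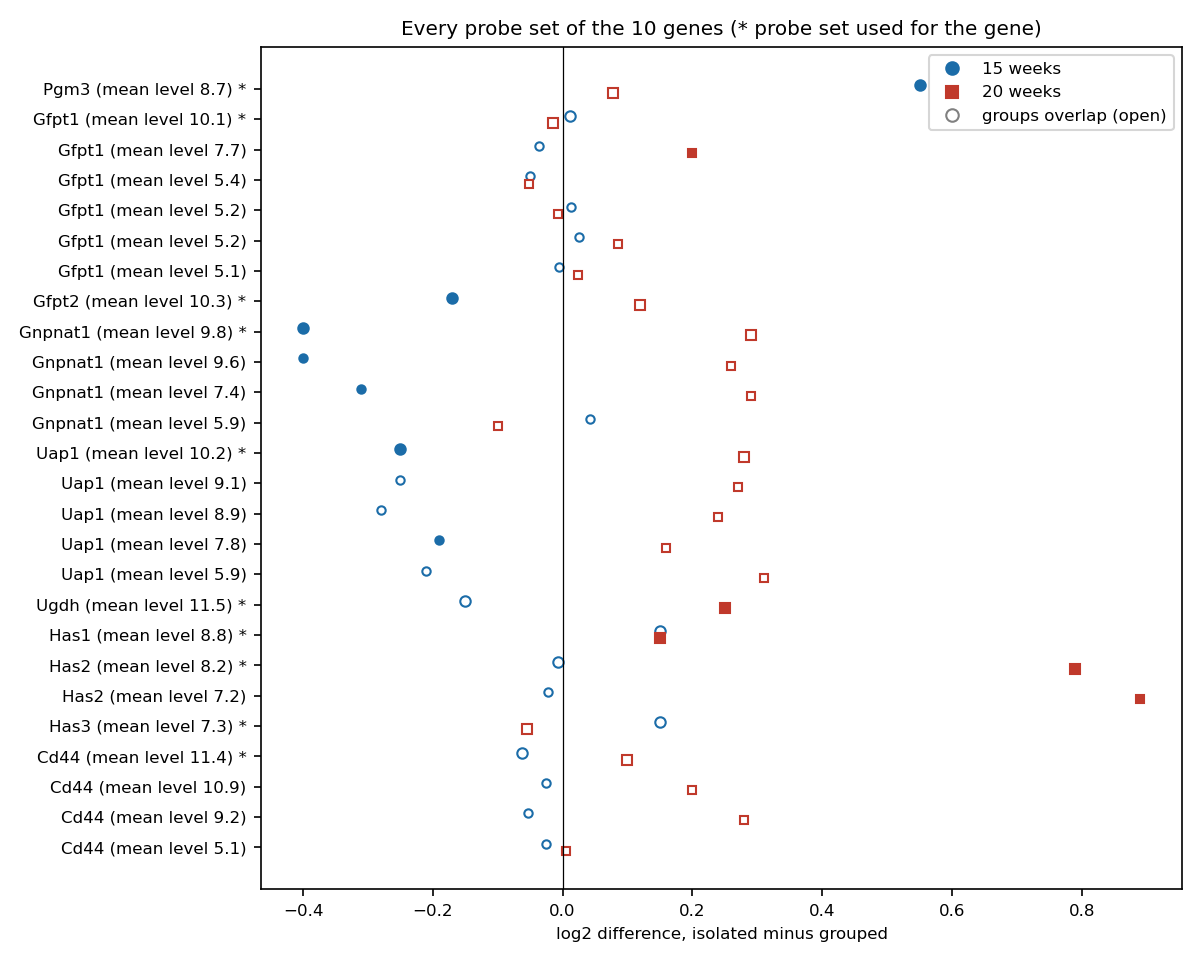
Log2 difference, isolated minus grouped, of each of the 26 probe sets at 15 weeks (circles) and 20 weeks (squares); filled symbols have groups that do not overlap, open ones overlap, and an asterisk marks the probe set used for a gene. Both Has2 probe sets lie at 0.79 and 0.89 at 20 weeks and near 0 at 15 weeks, and all 5 of Uap1 change side between the ages.

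The difference between the housing effects at both ages was tested as an interaction on all 16 arrays. It holds the differences at 15 weeks, which were in view when the genes were chosen, so it is no independent support. It was 0.80 for Has2 (SE 0.16, 95% interval 0.47 to 1.13, adjusted p = 0.131), 0.70 for Gnpnat1 (SE 0.16, adjusted p = 0.178), 0.53 for Uap1 (SE 0.20, adjusted p = 0.306) and 0.40 for Ugdh (SE 0.13, adjusted p = 0.231). For Pgm3 it was -0.47 (SE 0.10, 95% interval -0.68 to -0.26), given without its p since the difference at 15 weeks brought the gene here. In limma's fit 0 of the 10 genes passed (background 0.011%), and 5 had an unadjusted p under 0.05, against 12.7% of all genes. With the probe set of largest variance Has2 passed (0.91, SE 0.13, adjusted p = 0.0263). It also passed without grouped replicate 3 (0.87, adjusted p = 0.0321), isolated replicate 2 (0.92, adjusted p = 0.0384) or isolated replicate 4 (0.72, adjusted p = 0.0400) of 20 weeks, and Gnpnat1 passed without grouped replicate 3 (0.78, adjusted p = 0.0429).

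From 15 to 20 weeks the genes of this set moved in both directions. In grouped mice 2 of 10 rose and 3 fell, where 37.0% of all genes passed, 17.8% higher and 19.3% lower. In isolated mice 6 of 10 rose and 1 fell, where 50.2% of all genes passed, 25.9% higher and 24.4% lower. The arrays of both ages were apart for 4 of the 10 in grouped mice (35.4% of all genes) and for 6 in isolated mice (47.0%). The genes were chosen with results of these arrays known, so nothing is read from these shares. Each age comparison shares its arrays with the housing comparisons above. With age 6 of 6 white adipocyte markers fell in both housing groups, as did 7 of 7 skeletal muscle markers in isolated mice and 5 of 8 fibroblast markers in grouped mice, and their part in the values below was not tested.

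Pgm3 fell in both housing groups. Beyond the shift of all genes it fell by 0.48 in grouped mice (SE 0.08) and by 0.95 in isolated mice (SE 0.06), with all arrays of 20 weeks below all arrays of 15 weeks in each housing group. The p-values are not given, since the arrays of 15 weeks brought the gene here. With the shift removed, the order of its 4 group means was isolated at 15 weeks (9.22), grouped at 15 weeks (8.67), isolated at 20 weeks (8.27) and grouped at 20 weeks (8.19). The arrays of the last 2 overlapped.

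Gfpt1 and Cd44 rose in both housing groups. Gfpt1 rose by 0.48 in grouped (SE 0.10, adjusted p = 0.00467) and by 0.45 in isolated mice (SE 0.09, adjusted p = 0.00245). Only the brightest of its 6 probe sets showed a rise of that size, and the next brightest gave -0.30 in grouped and -0.066 in isolated mice. Cd44 lay at 11.20, 10.76, 10.24 and 11.25 in grouped mice of 15 weeks and at 11.93, 12.01, 11.82 and 11.79 in those of 20 weeks. It rose by 0.79 (SE 0.20, adjusted p = 0.0121). In isolated mice it went from 10.92, 10.78, 10.67 and 10.86 to 11.75, 11.92, 12.00 and 12.29, a rise of 0.95 (SE 0.11, adjusted p = 0.000169). Its 3 brighter probe sets gave rises between 0.63 and 0.96, with groups apart in each housing group.

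Has2, Ugdh and Uap1 rose in isolated mice. Has2 rose by 0.87 (SE 0.13, adjusted p = 0.000563), Ugdh by 0.55 (SE 0.08, adjusted p = 0.000373) and Uap1 by 0.56 (SE 0.16, adjusted p = 0.0138). In grouped mice their differences were 0.068 (SE 0.08, adjusted p = 0.508), 0.15 (SE 0.10, adjusted p = 0.264) and 0.036 (SE 0.11, adjusted p = 0.817). Ugdh passed in grouped mice too without grouped replicate 4 of 15 weeks (0.25, adjusted p = 0.0324). The Uap1 arrays of both ages overlapped in isolated mice, and its other 4 probe sets gave 0.13 to 0.47 there and -0.24 to -0.049 in grouped mice. That these age differences vary with housing is the interaction given above, which did not pass. The Has2 probe sets disagreed in grouped mice: the second, which lay at a mean of 6.46 and thus under the lower quartile of the arrays at 15 weeks, gave 0.88 with groups apart, and 1.80 in isolated mice. A rise of Has2 in grouped mice therefore depends on the probe set.

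Gnpnat1 moved in opposite directions, with a fall of 0.39 in grouped mice (SE 0.13, adjusted p = 0.0386) and a rise of 0.31 in isolated mice (SE 0.08, adjusted p = 0.0136). The fall lost its call in 8 of 16 alternatives (adjusted p from 0.0137 to 0.302), among them the replicate block (adjusted p = 0.0701), the probe set of largest variance (-0.14) and values as deposited (-0.16). Single arrays ended it too: grouped replicates 2, 3 or 4 of 15 weeks (-0.39, -0.39 and -0.32) and 2 or 4 of 20 weeks (-0.36 and -0.28). Gfpt2 fell by 0.40 in grouped mice (SE 0.09, adjusted p = 0.00931) and differed by -0.11 in isolated mice (SE 0.13, adjusted p = 0.474). The Gfpt2 call was lost with values as deposited (-0.17, adjusted p = 0.136). Has1 and Has3 did not pass in either housing group, with differences from -0.070 to 0.14.

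Genes around the pathway were read from 5 companion lists. The counts with age stand against 37.0% of all genes that passed in grouped mice and 50.2% in isolated mice. Those for housing stand against 0.044% at 15 weeks and 0.011% at 20 weeks, so 0 calls in a list is no sign that housing had no effect on it. Nothing particular to a list is read from these counts. Of 15 other hexosamine, UDP-sugar and sialic acid enzymes, 0 passed for housing at either age, with medians of -0.065 at 15 and 0.012 at 20 weeks. The smallest p at 20 weeks was that of Pgm1, a phosphoglucomutase gene (-0.46, SE 0.17, adjusted p = 0.567). With age 4 rose and 0 fell in grouped mice (26.7% of the list), and 9 rose and 3 fell in isolated mice (80.0%). Nans, which makes sialic acid, rose by 0.43 (SE 0.11, adjusted p = 0.0140) and by 0.70 (SE 0.10, adjusted p = 0.000496), and Pgm1 fell by 0.82 in isolated mice (SE 0.15, adjusted p = 0.0019).

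Of 23 genes of hyaluronan turnover, binding and reception, 0 passed for housing at either age, with medians of -0.0010 and -0.017. At 20 weeks the pentraxin Ptx3, which cross-links hyaluronan in the matrix of the ovarian follicle, had means of 9.24 in grouped and 10.18 in isolated mice (0.94, SE 0.22, adjusted p = 0.429), with groups apart. Vcan, the hyaluronan-binding proteoglycan versican, had means of 8.89 and 9.88 (0.99, SE 0.26, adjusted p = 0.465), with groups that overlapped. With age 5 of the 23 rose and 2 fell in grouped mice (30.4% of the list), and 6 rose and 2 fell in isolated mice (34.8%). In isolated mice Ptx3 rose by 1.01 (SE 0.10, adjusted p = 8.63e-05) and Vcan by 1.19 (SE 0.15, adjusted p = 0.000224). Hmmr, a hyaluronan-binding protein of the mitotic spindle, rose by 0.65 in grouped (SE 0.07, adjusted p = 0.00036) and 0.63 in isolated mice (SE 0.09, adjusted p = 0.000604), as did proliferation markers (5 of 5 and 4 of 5).

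Chains that share the UDP-sugar supply gave 0 calls for housing among 15 chondroitin and heparan sulfate genes. The heparan sulfate polymerase gene Ext1 was the one with the smallest p at 20 weeks (0.48, SE 0.08, adjusted p = 0.259), with groups apart. With age 3 rose and 1 fell in each housing group (26.7% of the list), among them Ext1 (0.38 in grouped, adjusted p = 0.00273, and 0.91 in isolated mice, adjusted p = 7.78e-05). Of 12 N-glycan genes 0 passed for housing, and with age 1 rose and 0 fell in grouped (8.33% of the list) and 3 rose and 2 fell in isolated mice (41.7%). Slc35a3, which carries UDP-N-acetylglucosamine into the Golgi, rose by 0.57 in isolated mice (SE 0.06, adjusted p = 0.000114). Of 14 unfolded protein response genes, which include Xbp1, 0 passed for housing. Xbp1 differed by -0.27 at 15 weeks (SE 0.08, groups apart) and did not pass. At 15 weeks 2 of the 14 had a positive difference, against 46% of all genes. The same share was 3 of 12 for the N-glycan genes and 6 of 15 for the chondroitin and heparan sulfate genes. It was 4 of 15 for the other hexosamine, UDP-sugar and sialic acid enzymes and 10 of 23 for the hyaluronan genes. Of the unfolded protein response genes 2 rose and 2 fell with age in grouped (28.6% of the list) and 5 rose and 0 fell in isolated mice (35.7%).

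The genes whose deviations from their group means most resembled those of each member were ranked over the 16 arrays, as a description. For Uap1 the first was Cd34, a surface protein of endothelial, stromal and blood progenitor cells (Pearson r = 0.977, Spearman rho = 0.926). For Gfpt2 the first was Kcnj8 (r = 0.953, rho = 0.856). It was followed by Cygb (r = 0.945, rho = 0.876) and Prrx1, a homeobox gene of mesenchymal cells (r = 0.940, rho = 0.853). For Gnpnat1 the first was Hs3st3a1, a heparan sulfate sulfotransferase (r = 0.913, rho = 0.926), and for Has2 it was the neuropeptide Y receptor Npy1r (r = 0.885, rho = 0.871). Cd44 came closest to Lrrfip1 (r = 0.959, rho = 0.865), Actg1, which encodes a cytoplasmic actin (r = 0.949, rho = 0.971), and Inhba, an activin subunit (r = 0.943, rho = 0.871). Gfpt1 came closest to the RNA helicase gene Ddx3x (r = 0.962, rho = 0.924), Ugdh to 4930590A17Rik (r = 0.939, rho = 0.894) and Pgm3 to Rabepk (r = 0.922, rho = 0.906). Has1 came closest to Krt72 (r = 0.871, rho = 0.841) and Has3 to Fbp1 (r = 0.928, rho = 0.932). Arrays share their tissue make-up, so these values are not measures of shared control.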

How the data were processed

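Total RNA of whole thoracic mammary glands was measured on Affymetrix arrays. The deposited values are log2 levels that the authors computed by RMA with affy (no version named), per the submitters' processing notes; no source used here says whether the 2 ages were processed together. Arrays have no sequencing depth, and their number sets the precision. From these values, gene symbols of probe sets were taken from the annotation of the platform (34945 with 1 symbol, 932 with several, 9160 not listed, 64 Affymetrix controls), and the probe set of highest mean was kept for each of 18193 genes. A pair of groups was compared in a fit of those 8 arrays alone, and the interaction in a fit of 16, by limma 3.58.1 under R 4.3.3 (lmFit, then eBayes with a trend on level), with Benjamini-Hochberg adjustment over all genes at 0.05. For age, the median shift was subtracted first. The fits were tested on simulated data. Arrays are numbered in the labels, but separate mice are not stated, so the p-values rest on the spread between these samples, which may be technical. Same-numbered arrays correlated from -0.20 to 0.49 in their deviations, which is no clear pairing but does not exclude one. With the replicate block the SE of Has2 for housing at 20 weeks was 0.10 in place of 0.14 (adjusted p = 0.0679 in limma). Arrays of a group were no duplicates (the smallest SD of a difference was 0.115).

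All members were named whatever their values. From each companion list the rule named up to 4 genes with the smallest p among those that passed in a comparison, or up to 2 with the smallest p where none did, and the text gives some of these. Up to 3 most similar genes were named per member. Members and lists were chosen with earlier results of these data known. Alternatives were quantile normalization, a filter at the 40th percentile of level, the probe set of largest variance, every probe set, no trend, the replicate block, all 16 arrays per fit, the shift left in, the Gapdh control as a covariate and leaving out each array. The motifs were chosen after the values were seen.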

Additional observations from a re-analysis of the deposited data

Results flagged for a closer look

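In 1 of the 40 groups of 4 arrays (10 genes in 4 groups) a single array lay far from the others, where chance alone marks about 5% of groups. Gnpnat1 lay at 10.34 on isolated replicate 3 of 20 weeks, against 9.97 to 10.02 on the other 3 isolated arrays of that age, so that the gap took up 0.852 of the group's range. The same array was the highest of the 8 at 20 weeks for Gfpt2 (10.55), Uap1 (11.03), Ugdh (12.03) and Has1 (9.13) too, and it stood apart in T and B cell markers (8.34, against 7.23 to 7.35 on the other 7 arrays of 20 weeks) and had the highest macrophage marker mean (11.77). Without it Gnpnat1 differed between housing groups at 20 weeks by 0.21 in place of 0.29.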

How the results depend on the processing

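For housing at 15 weeks, where 0 of the 10 genes passed, the count was 1 with the filter at the 40th percentile and with all 16 arrays in the fit, and 0 to 1 without single arrays. The gene was Pgm3, whose value in this contrast chose it, so nothing is read from this count; its difference was 0.48 to 0.60 in all alternatives run. Of all genes 8 passed, with 2 after quantile normalization, 17 with the replicate block, 2 with all 16 arrays, 2 with the Gapdh covariate, and 0 to 31 without single arrays. For housing at 20 weeks 0 of the 10 passed and 1 (Has2) with the probe set of largest variance or all 16 arrays, while 0 to 0 passed without single arrays. Of all genes 2 passed, 8 with all 16 arrays and 0 to 136 without single arrays. For the interaction 0 of the 10 passed, 1 (Has2) with the probe set of largest variance and 0 to 2 without single arrays. Of all genes 2 passed, with 1 under the filter, 1 without the trend, 8 with the replicate block and 0 to 139 without single arrays. With age in grouped mice 5 of the 10 passed, and 4 to 5 without single arrays, of 6740 genes in all, with 3737 under the filter, which tests fewer genes, and 11362 with the shift left in. In isolated mice 7 of the 10 passed, and 7 to 7 without single arrays, of 9136 genes, with 5804 under the filter. With the shift left in, Has1 (0.32, adjusted p = 0.00138), Has2 (0.30), Has3 (0.37) and Ugdh (0.38) passed in grouped mice and Has1 (0.31) in isolated mice. The replicate block changed 1 call of the members, that of Gnpnat1 in grouped mice; same-numbered arrays were not shown to be pairs. No called member changed sign. The causes were not tested otherwise. The filter removed Has2 and Has3, so it gave no value for them. The precision is limited by 4 arrays a group, and by the low levels of Has2 and Has3.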
